A study of Mus musculus with 14 samples.

Results

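The arrays described here are the 2 of mouse liver 8 h after partial hepatectomy (PHx, an operation that takes out part of the liver and is followed by regrowth) and the 2 of mouse liver 4 h after it, 4 of the 14 arrays of the series. They were chosen by their labels, PHx8h and PHx4h, and each value below is the 8 h level set against the 4 h level of the same probe set. The other 10 arrays are 2 each of liver 12, 36, 48 and 72 h after PHx and of normal liver, and they enter only the estimate of the spread and the levels given for context. Each RNA extract came from the pooled livers of 4 to 6 mice, and the labels name no strain, sex, age or sham operation. Whether the 2 arrays at 8 h, or at 4 h, hold separate pools is not stated, so p-values reflect array-to-array spread that may be technical only.

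Partial hepatectomy drives quiescent hepatocytes back into the cell cycle. In the first hours, cytokines such as interleukin 6 and tumour necrosis factor, released in part by the resident macrophages of the liver (Kupffer cells), induce immediate-early genes and acute-phase proteins. The cells then pass through G1, with new ribosomes and secretory capacity, while the remnant takes up fat and carries the metabolic load of the whole organ. The step between 4 and 8 h lies in G1, well before DNA synthesis.

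The tissue label held in its markers: all 12 measured transcripts of hepatocyte identity were bright, and Alb, serum albumin, had intensities of 45884 and 42430.5 at 8 h against 47422 and 65335 at 4 h. Replicate arrays correlated across probe sets with r = 0.963 for 8 h and 0.970 for 4 h, and an 8 h array with a 4 h array with r = 0.918 to 0.933; probe sets are not independent replicates. Both times carried transcripts of exocrine pancreas and skeletal muscle, which are described at the end. In a labelling control, the pyruvate carboxylase probe sets, the 5′ signal was 0.105 of the 3′ signal on array 2 at 8 h, against 0.305 to 0.513 on the other 3 arrays. Array 2 at 12 h stood apart from array 1 of its time: of 39 immediate-early genes it lay nearer to the 4 h mean than to the 8 h mean in 25, and array 1 at 12 h in 8, against 43.5% and 33.6% of all genes. Since the 7 groups share 1 estimate of the spread, the 12 h pair widened it, and counts are also given from a fit without the 2 arrays at 12 h, which was added once the data had been seen.

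Of 13576 probe sets tested, limma called 109 higher at 8 h (0.803%) and 84 lower (0.619%), at an adjusted p under 0.05 by Benjamini-Hochberg. They represent 90 and 68 genes, and 106 and 83 of the probe sets differed at least 2-fold. Over the 8453 genes, each taken by its brightest probe set, 1.56% passed, 0.875% higher and 0.686% lower. These shares are the background for the counts of called genes below. The fit without the 12 h arrays called 241 probe sets higher (1.78%) and 220 lower (1.62%), and over genes 1.87% and 1.93%; it kept all 193 calls. Of all genes 9.19% were higher and 7.95% lower at an unadjusted p under 0.05, the background for such counts below. The total rests on all 4 arrays: without array 1 or 2 at 8 h 11 probe sets passed in each case, and without array 1 or 2 at 4 h 14 and 7. Without the 4 arrays of low pyruvate carboxylase ratio, array 2 at 8, 12, 36 and 72 h, 78 passed. Differences below are 8 h minus 4 h on the scale of log2(intensity + 56.6), SE is their standard error in limma for 2 arrays against 2, and the median difference over all genes was 0.05. In bulk tissue, fewer cells of a type and less RNA per cell cannot be told apart.

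**Figure D1:**
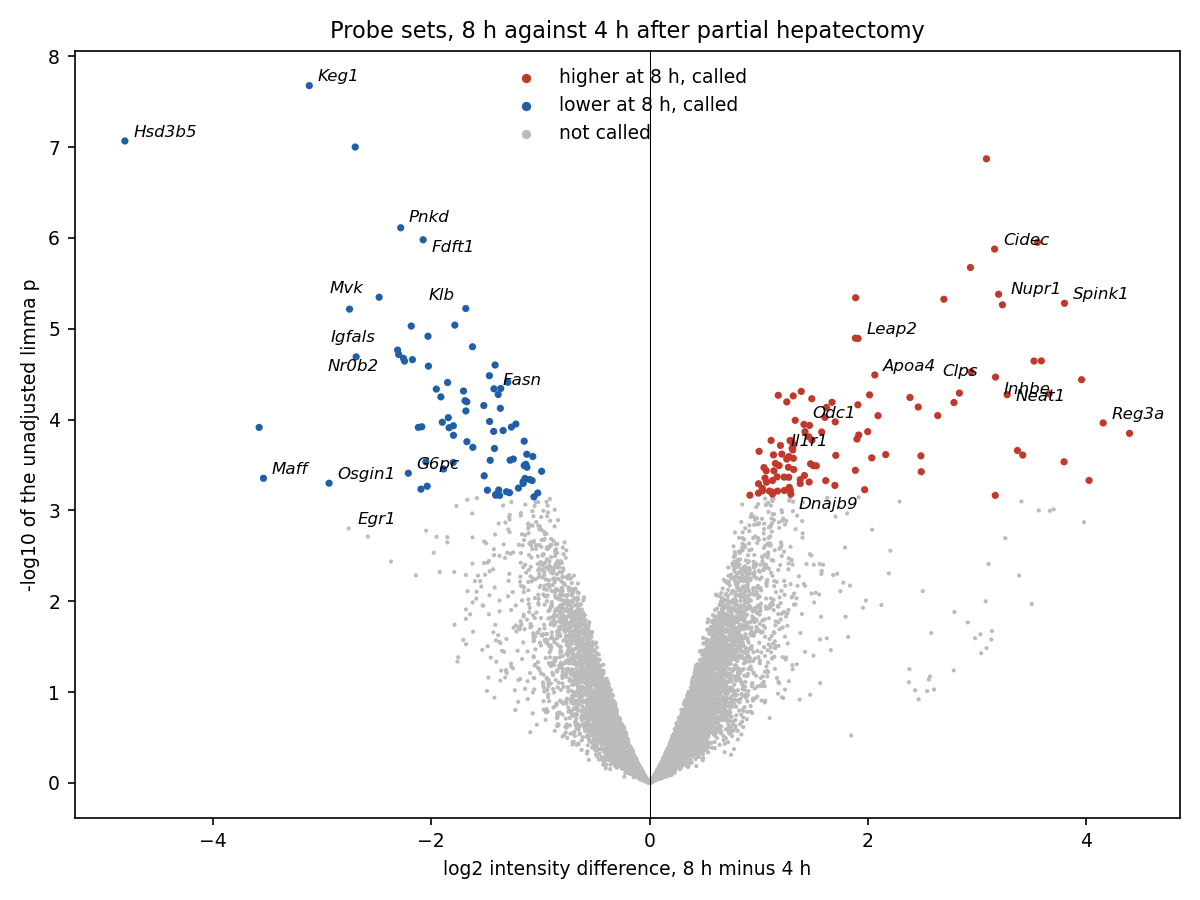
Each point is a probe set. The horizontal axis gives the log2 intensity difference, 8 h minus 4 h, and the vertical axis -log10 of the unadjusted limma p; red points (109) passed as higher at 8 h, blue points (84) as lower, and grey points did not pass. Hsd3b5 and Keg1 lie farthest up on the lower side, and pancreatic transcripts such as Spink1 and Reg3a lie among the largest rises beside Cidec, Nupr1 and Neat1. Egr1 has a large difference and did not pass.

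Male-biased genes that depend on pulsed growth hormone were among those that fell, with Hsd3b5 the lowest of the 84 probe sets called lower. Hsd3b5, a ketosteroid reductase of male mouse liver, had intensities of 15.2 and 10.9 at 8 h against 2026 and 1761 at 4 h. It was not above background on either 8 h array and was at least 22.6-fold lower (adjusted p = 0.000453). Its level had been 3052 and 4494 in normal liver, and it was 7.8 and 69.3 at 12 h. Keg1, a glycine N-acyltransferase-like gene, had 413 and 419 at 8 h against 4174 and 3914 at 4 h, a difference of -3.12 (SE 0.24, adjusted p = 0.000287). Igfals, the acid-labile subunit that keeps insulin-like growth factors in the blood, had 240.4 and 184 at 8 h against 1392 and 1154 at 4 h (-2.31, SE 0.34, adjusted p = 0.00972). Hsd3b2, a second hydroxysteroid dehydrogenase, had 15.5 and 14.9 at 8 h against 195 and 250.1 at 4 h, at least 2.65-fold lower (adjusted p = 0.0143). In each of the 4 genes both 8 h arrays lay far below both 4 h arrays. For Hsd3b5, Keg1 and Igfals the rule by which they were named required arrays that do not overlap.

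Of the 21 measured genes of this list, 6 fell and none rose (limma; 11 lower and 0 higher at an unadjusted p under 0.05), against 0.686% of all genes lower, and 8 fell without the 12 h arrays. The other 2 that fell were C8b, a subunit of the complement membrane attack complex (-1.12, SE 0.23), and Nudt7, a peroxisomal coenzyme A hydrolase (-1.12, SE 0.22). The list median was -0.67. The remaining members did not pass: Igf1 differed by -0.40, Cyp4a12a by -0.21 and Mup5 by -0.02, and Socs2, a feedback inhibitor of growth hormone signalling, by 0.13. The range of the list, from Hsd3b5 to Socs2, was thus wide. Of genes that relay the hormone, Ghr, its receptor, had 4148 and 4539 at 8 h against 8713 and 7776 at 4 h (-0.91, SE 0.24, adjusted p = 0.0922, and 0.029 without the 12 h arrays). Stat5b, its transcription factor, had 208 and 296 at 8 h against 594 and 550.0 at 4 h (-1.04, SE 0.28, adjusted p = 0.0942, and 0.028 without the 12 h arrays).

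Immediate-early genes, which answer signals without new protein synthesis, were mostly lower at 8 h: in 22 of 39 both 8 h arrays lay below both 4 h arrays, which held for 24.2% of all genes. Maff, a small Maf transcription factor, had 27.5 and 28.9 at 8 h against 894.6 and 960.4 at 4 h. At 8 h it was not above background, at least 11.1-fold lower (adjusted p = 0.0395). Maff was also low in normal liver, at 23.9 and 13.2, while the arrays at 12 h gave 41.8 and 1049, a split that widens its standard error to 0.74. Egr1, a zinc finger factor, had 1939.7 and 1664 at 8 h against 11363 and 13642 at 4 h (-2.75, SE 0.68, adjusted p = 0.0736). Gadd45b, a stress-induced regulator of MAP kinases, had 493 and 593 at 8 h against 3124 and 2935 at 4 h (-2.37, SE 0.66, adjusted p = 0.11). In both genes the groups were far apart at these probe sets and the test was missed. A further Gadd45b probe set did not pass (-2.14), and another overlapped (-0.18). Without the 12 h arrays Egr1 and Gadd45b passed as lower (adjusted p = 0.00233 and 0.000288).

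Fos, a subunit of the transcription factor AP-1, had 316 and 243 at 8 h against 1296 and 726 at 4 h (-1.62, SE 0.46, adjusted p = 0.112). Atf3, a stress-induced factor of the same class, had 267 and 425 at 8 h against 939 and 912 at 4 h (-1.31, SE 0.63, adjusted p = 0.34). Both passed without the 12 h arrays (adjusted p = 0.0124 and 0.0499). Jun, the partner of Fos, had 937 and 742 at 8 h against 1356 and 1436 at 4 h (-0.71, SE 0.31, adjusted p = 0.281), and Myc 319.7 and 487 at 8 h against 756 and 705 at 4 h (-0.80, SE 0.39, adjusted p = 0.355). Neither Jun nor Myc passed in the fit without the 12 h arrays (adjusted p = 0.158 and 0.126). In the list of 39 immediate-early genes 1 fell and 0 rose (limma; 13 lower and 3 higher at an unadjusted p under 0.05); the list median was -0.28. Without the 12 h arrays 10 fell and 0 rose, against 1.93% of all genes lower, among them Btg2, an antiproliferative gene, with 2389 and 2403 at 8 h against 6382 and 7238 at 4 h. In all 10, which were called in the fit that left it out, the second array at 12 h lay nearer to the 4 h mean than to the 8 h mean, and in 0 of them the first; of the 163 genes called lower in that fit this held for 66 and 10. Of 11 MAP kinase phosphatases and Sprouty feedback genes 0 passed in the fit with all arrays (2 lower at an unadjusted p under 0.05), and 2, Dusp1 and Dusp6, fell without the 12 h arrays.

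**Figure D2:**
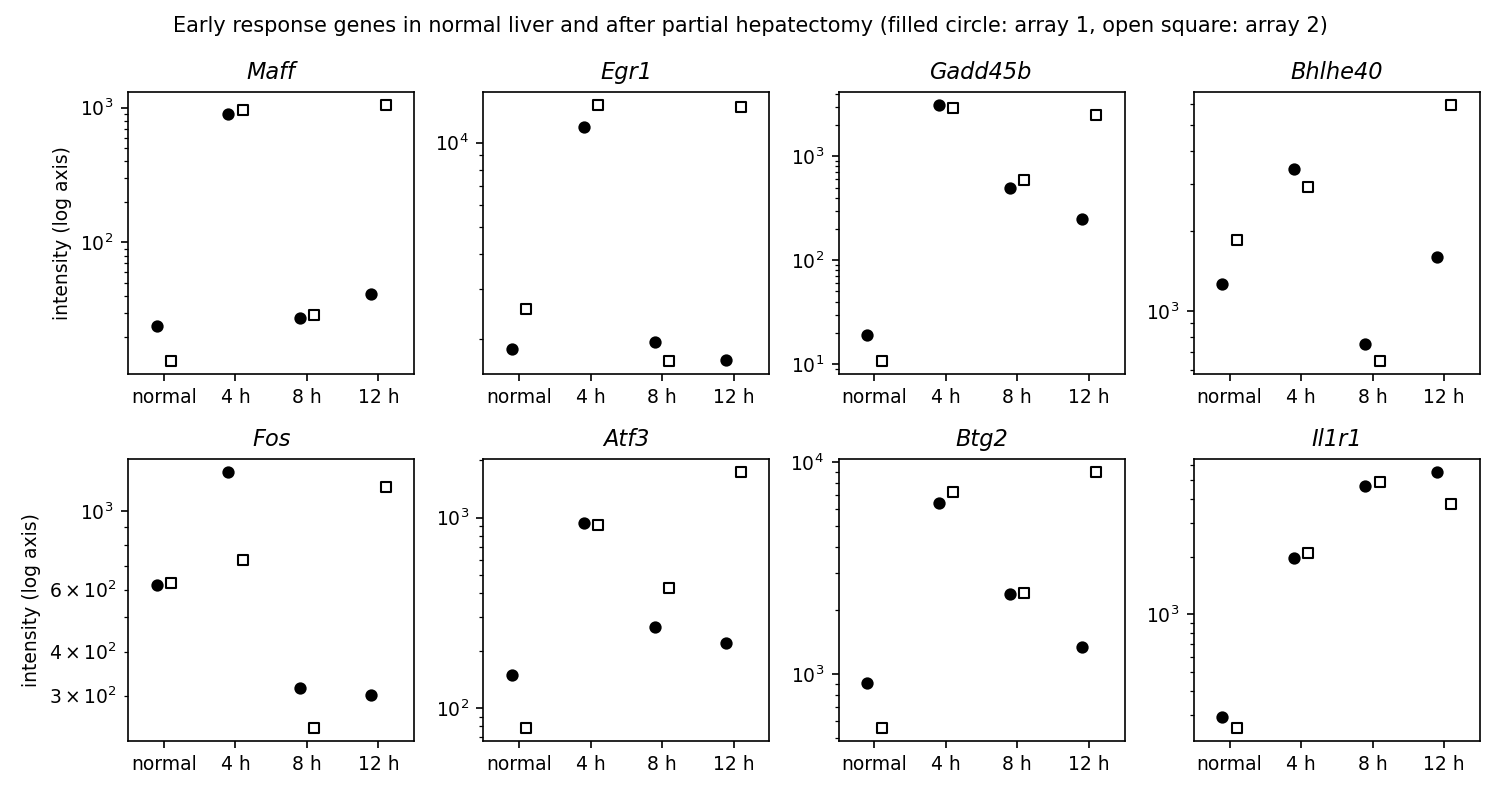
Intensity on a log axis of 8 genes in normal liver and 4, 8 and 12 h after PHx, with array 1 of a time as a filled circle and array 2 as an open square. Maff, Egr1, Gadd45b, Bhlhe40, Fos, Atf3 and Btg2 are lower on both 8 h arrays than on both 4 h arrays, and their second 12 h array is near or above the 4 h level. Il1r1, shown for contrast, has 4654 and 4877 at 8 h against 1973 and 2079 at 4 h.

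Genes of cholesterol synthesis were lower at 8 h along most of the pathway. Mvk, mevalonate kinase, had 53.2 and 48.6 at 8 h against 519 and 565 at 4 h; it was not above background at 8 h and at least 6.49-fold lower (adjusted p = 0.00486). Msmo1, the sterol C4-methyl oxidase, had 981 and 929 at 8 h against 4822 and 4198 at 4 h (-2.17, SE 0.32, adjusted p = 0.00996). Fdft1, squalene synthase, the first step committed to sterols, had 478 and 639 at 8 h against 2538 and 2482 at 4 h (-2.07, SE 0.23, adjusted p = 0.00216). Hmgcs1, the cytosolic HMG-CoA synthase, had 4624 and 6052 at 8 h against 12621 and 11867 at 4 h (-1.20, SE 0.26, adjusted p = 0.0453). Its other 3 probe sets, at -0.91, -0.88 and -1.34, did not pass. Sc5d, lathosterol oxidase near the end of the pathway, had 3079 and 3288 at 8 h against 7091 and 7148 at 4 h (-1.15, SE 0.21, adjusted p = 0.0235). Normal liver had 485 and 882 for Mvk and 2240.1 and 2035 for Fdft1, near the 4 h levels.

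Of the 20 measured genes of the list, 5 fell and 0 rose (limma; 14 lower and 0 higher at an unadjusted p under 0.05), against 0.686% of all genes lower. The list median was -0.86, and in 19 of 20 both 8 h arrays lay below both 4 h arrays, against the same 24.2%. The exception was Hsd17b7 (-0.10). Without the 12 h arrays 9 fell, the 4 additional ones being Scap, the sterol-sensing escort protein (-1.29), Sqle, squalene epoxidase (-0.92), Nsdhl (-0.87) and Idi1 (-0.86). Srebf2, the transcription factor of the pathway, differed by -0.39 and did not pass. At 12 h Mvk was at 14.7 and 53.1, Fdft1 at 618 and 706 and Hmgcs1 at 2446 and 2692.

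**Figure D3:**
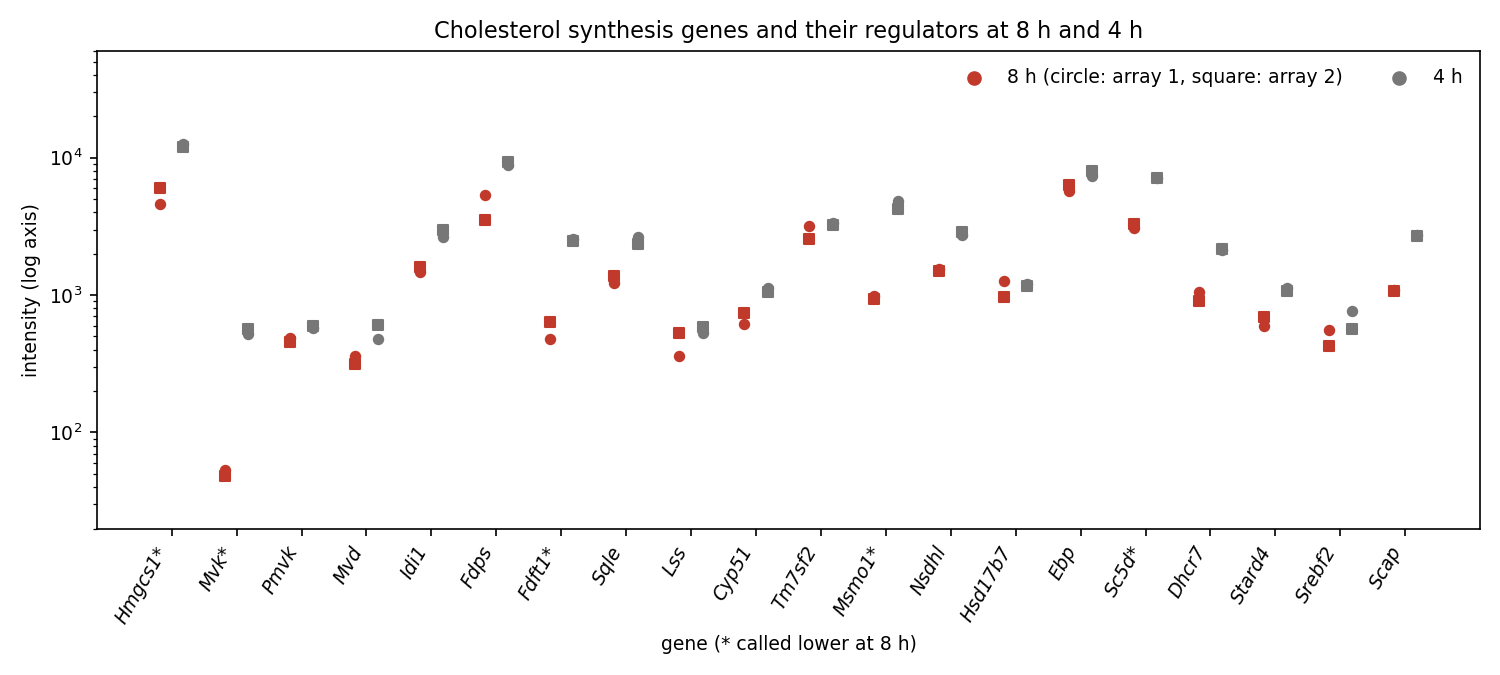
Intensity on a log axis of the 20 measured genes of cholesterol synthesis and their regulators, in pathway order, at 8 h (red) and, to the right of it, at 4 h (grey), with array 1 as a circle and array 2 as a square. The 5 genes marked * passed as lower at 8 h, and in all genes but Hsd17b7 both 8 h points lie below both 4 h points.

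Promoters were matched for 4 of the 5 genes that fell, all but Fdft1. They are shown because they share a short element that is common in sterol-regulated promoters, CCAAT, the box bound by the factor NF-Y. Each runs 5′ to 3′ on the strand of the gene from 250 bases before to 50 after the annotated start, from RefSeq on GRCm38.p6, with CCAAT or its reverse complement ATTGG in capitals. They lie at chr5:114444019-114444318 (plus strand), chr8:64733529-64733828 (minus), chr13:119690101-119690400 (plus) and chr9:42264251-42264550 (minus), in the order given.
Mvk: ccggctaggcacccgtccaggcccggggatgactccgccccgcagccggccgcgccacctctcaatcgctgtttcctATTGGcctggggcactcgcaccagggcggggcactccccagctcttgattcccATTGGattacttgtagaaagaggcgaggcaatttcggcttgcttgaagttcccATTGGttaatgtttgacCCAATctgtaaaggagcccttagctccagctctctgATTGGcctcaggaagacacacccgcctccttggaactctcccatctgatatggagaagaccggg
Msmo1: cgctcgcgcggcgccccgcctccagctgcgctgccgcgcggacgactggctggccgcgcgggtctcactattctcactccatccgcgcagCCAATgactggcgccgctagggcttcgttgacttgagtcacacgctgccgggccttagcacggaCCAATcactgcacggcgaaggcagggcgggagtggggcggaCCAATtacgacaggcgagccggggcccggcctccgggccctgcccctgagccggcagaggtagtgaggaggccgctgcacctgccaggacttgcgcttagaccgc
Hmgcs1: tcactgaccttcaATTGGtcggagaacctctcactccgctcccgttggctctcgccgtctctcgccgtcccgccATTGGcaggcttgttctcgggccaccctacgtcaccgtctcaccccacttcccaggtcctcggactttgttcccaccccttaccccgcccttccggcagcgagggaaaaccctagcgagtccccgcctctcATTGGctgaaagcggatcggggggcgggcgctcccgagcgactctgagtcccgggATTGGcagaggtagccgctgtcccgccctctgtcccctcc
Sc5d: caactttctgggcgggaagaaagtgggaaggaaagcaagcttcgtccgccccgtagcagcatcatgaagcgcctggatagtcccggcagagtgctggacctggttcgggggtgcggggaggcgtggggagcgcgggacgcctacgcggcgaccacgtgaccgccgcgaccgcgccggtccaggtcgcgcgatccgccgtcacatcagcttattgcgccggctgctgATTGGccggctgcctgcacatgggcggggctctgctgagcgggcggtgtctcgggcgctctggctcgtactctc

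On both strands CCAAT occurred 5 times in the Mvk window, 3 times in Msmo1, 4 times in Hmgcs1 and 1 time in Sc5d. Of the 20 list members 16 had a promoter in the table and 15 of these held CCAAT (93.8%), all but Scap, against 42.6% of 6877 tested genes with a promoter and 37.4% of all 32851 promoters. The form TCACNCCAC of a sterol regulatory element, likewise searched on both strands, was found in 1 of the 16, Hmgcs1, against 1.51% of tested genes and 1.24% of all promoters. These matches describe letters and show no binding.

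Fatty acid synthesis and bile acid genes followed on the lower side. Fasn, fatty acid synthase, had 2569 and 2373 at 8 h against 7275 and 6216 at 4 h (-1.42, SE 0.23, adjusted p = 0.0143). Dgat2, which makes triglyceride, had 4131 and 4343 at 8 h against 9204 and 9056 at 4 h (-1.10, SE 0.23, adjusted p = 0.0401). These were the 2 of 28 fatty acid and triglyceride synthesis genes that fell (median -0.29), against 0.686% of all genes lower. Without the 12 h arrays 5 fell, against 1.93% of all genes. In either fit 0 rose (limma, with 8 lower and 0 higher at an unadjusted p under 0.05 with all arrays). Srebf1, their regulator, had 912 and 1016 at 8 h against 1732 and 1773 at 4 h and did not pass (-0.83, SE 0.31, adjusted p = 0.205). Among 27 bile acid genes (median -0.51) 2 fell, Nr0b2 and Cyp8b1, and 0 rose, against the same 0.686% of all genes lower. Without the 12 h arrays 4 of the 27 fell and 1 rose. Nr0b2, the repressor SHP that is induced by bile acids, had 472 and 313 at 8 h against 2172 and 2059 at 4 h (-2.30, SE 0.34, adjusted p = 0.00996). Cyp8b1, the sterol 12-alpha-hydroxylase that sets the share of cholic acid, had 1557 and 1263 at 8 h against 3973 and 5321 at 4 h (-1.67, SE 0.28, adjusted p = 0.0147). Cyp7a1, the rate-limiting enzyme, overlapped, with 221 and 167 at 8 h against 183 and 346 at 4 h (-0.32, SE 0.30). It had already been lower at 4 h than in normal liver, where it read 1104 and 1348. Klb, the co-receptor through which gut FGF15 represses bile acid synthesis, had 274 and 289 at 8 h against 1032 and 1026 at 4 h (-1.68, SE 0.22, adjusted p = 0.00486).

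In the fit of all arrays single genes of glucose output and of the cytochrome P450 family fell, as did 2 of amino acid metabolism. G6pc, glucose-6-phosphatase, the last step of glucose release, had 624 and 1008 at 8 h against 3733 and 4034 at 4 h (-2.21, SE 0.46, adjusted p = 0.0365). Pck1, an earlier enzyme of the same path, overlapped, with 7334 and 6745 at 8 h against 7071 and 7036 at 4 h (-0.00, SE 0.62). G6pc was thus the 1 of 25 genes of glucose output that fell with all arrays (median -0.21), against 0.686% of all genes lower. At an unadjusted p under 0.05 in limma 7 of the 25 were lower and 0 higher. Without the 12 h arrays 3 fell and 0 rose. Pdk4, a brake on glucose oxidation, had 1849 and 1513 at 8 h against 5178 and 5816 at 4 h (-1.68, SE 0.57, adjusted p = 0.174, and 0.0189 without the 12 h arrays). Of 40 urea cycle and amino acid genes (median -0.41) 2 fell, Hal, histidine ammonia-lyase (-1.41, SE 0.31, adjusted p = 0.0484), and Gldc of the glycine cleavage system (-0.99, SE 0.20, adjusted p = 0.0352). Without the 12 h arrays 4 of these 40 fell and 1 rose, against 1.93% and 1.87% of all genes. Cyp26a1, which clears retinoic acid, had 551 and 486 at 8 h against 2290.0 and 2308 at 4 h (-2.04, SE 0.44, adjusted p = 0.0438). It was the 1 of 34 cytochrome P450 genes that fell in either fit (median -0.36), against 0.686% and 1.93% of all genes lower. Coq8a, an atypical kinase that sustains coenzyme Q production, had 469 and 714 at 8 h against 2733 and 3204 at 4 h (-2.24, SE 0.34, adjusted p = 0.00996).

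Coagulation and complement genes, nearly all made by hepatocytes, lay lower as a list. In 34 of 42 both 8 h arrays were below both 4 h arrays, against 24.2% of all genes, with a median of -0.52. The test called 1 of them, C8b, with 3088 and 2934 at 8 h against 6872 and 6379 at 4 h (adjusted p = 0.0335), and 7 without the 12 h arrays (19 lower and 0 higher at an unadjusted p under 0.05 in limma). Of all genes 0.686% and 1.93% were called lower in these fits. The 3 fibrinogen chains, Fga, Fgb and Fgg, differed by -0.09, -0.04 and -0.18. Of 59 subunits of oxidative phosphorylation none passed in limma in either fit (4 lower and 0 higher at an unadjusted p under 0.05); the list median was -0.25. The 12 hepatocyte identity transcripts had a median of -0.30 and none passed in limma (0 at an unadjusted p under 0.05), their summed intensity being 372401 and 348642 at 8 h against 402647 and 499050 at 4 h. The part that the rise of pancreatic transcripts on the same scaled arrays has in these small shifts was not tested.

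Other falls outside the metabolic lists were sharp. Osgin1, an oxidative-stress-induced growth inhibitor, had 471 and 439 at 8 h against 3523 and 4222 at 4 h (-2.94, SE 0.62, adjusted p = 0.0417). Atp1b1, the beta subunit of the sodium pump, had 574 and 1192 at 8 h against 3609 and 3993 at 4 h (-2.12, SE 0.38, adjusted p = 0.0199). Of its 4 other probe sets 3 fell, with differences of -1.80, -1.80 and -2.70, and 1 overlapped (0.03). Fbf1, a protein of centriole appendages, had 449 and 473 at 8 h against 2143 and 2451 at 4 h (-2.18, SE 0.30, adjusted p = 0.00668), and in normal liver it was at 395 and 317. Pnkd had 296 and 202 at 8 h against 1487 and 1334 at 4 h (-2.28, SE 0.25, adjusted p = 0.0021). A further Pnkd probe set did not pass (-0.44). Atp1b1 was at 1212 and 1943 in normal liver, below both 4 h arrays as Fbf1 was. Coq8a, at 5113 and 7678, and Pnkd, at 2568.5 and 2880.5, lay in normal liver above both 4 h arrays.

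Clock genes were mostly lower at 8 h; the labels give no hour of day for either time. Bhlhe40, a light- and hypoxia-responsive repressor of the clock, had 752 and 648 at 8 h against 3432 and 2920.4 at 4 h (-2.09, SE 0.45, adjusted p = 0.046). Nr1d2, the nuclear receptor REV-ERB-beta, had 499 and 443 at 8 h against 1590.1 and 1318 at 4 h (-1.51, SE 0.31, adjusted p = 0.0384), while its other probe set overlapped (0.13). These 2 of 14 clock genes fell and 0 rose (limma, with 6 lower and 0 higher at an unadjusted p under 0.05), against 0.686% of all genes lower. The list median was -0.61. Per1, a core clock gene, overlapped, with 346.6 and 538.2 at 8 h against 292.7 and 622.9 at 4 h.

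On the higher side were genes of the lipid droplet list. Cidec, which fuses lipid droplets in fat cells and steatotic liver, had 2393 and 2125 at 8 h against 209 and 195 at 4 h (3.16, SE 0.36, adjusted p = 0.00226). In normal liver it was at 36.4 and 31, and at 12 h at 3163 and 1152. G0s2, an inhibitor of the lipase ATGL, had 1883 and 2264 at 8 h against 333 and 578 at 4 h (2.09, SE 0.36, adjusted p = 0.0181). Apoa4, an apolipoprotein that rises with liver triglyceride, had 20737 and 15736 at 8 h against 3577 and 5119 at 4 h (2.06, SE 0.32, adjusted p = 0.0124). The second Apoa4 probe set rose too (3.09, SE 0.28). Apoa4 also stood in the list of 24 apolipoproteins and plasma carriers, where it was the 1 called gene (median -0.32). Cidec, G0s2 and Apoa4 were 3 of 17 genes of the lipid droplet list (median 0.30), against 0.875% of all genes higher, and 0 fell. Without the 12 h arrays Fabp4 rose too and Hilpda, a hypoxia-induced droplet protein, fell (-1.76). Plin2, the main droplet coat of hepatocytes, differed by 0.25 and did not pass. None of 32 fatty acid oxidation genes passed in limma with all arrays (2 higher and 1 lower at an unadjusted p under 0.05). The list median was -0.00, and without the 12 h arrays 1 rose and 0 fell.

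Several regulators and secreted factors rose beside them. Neat1, the noncoding RNA of nuclear paraspeckles, had 1092 and 1131 at 8 h against 36.8 and 99.3 at 4 h (3.27, SE 0.54, adjusted p = 0.0143). Normal liver had 1106 and 2040.4, and the 8 h level was near the lower of these. Inhbe, the activin E subunit secreted by hepatocytes, had 1535 and 1461 at 8 h against 69 and 181 at 4 h (3.17, SE 0.50, adjusted p = 0.0125). Leap2, a hepatic peptide that antagonises the ghrelin receptor, had 3993 and 4061 at 8 h against 1104 and 962 at 4 h (1.91, SE 0.27, adjusted p = 0.00789). Cited2, a partner of the coactivators CBP and p300, had 648 and 592 at 8 h against 207 and 108 at 4 h (1.70, SE 0.30, adjusted p = 0.0196). H1f2, a linker histone, had 1949.5 and 2511 at 8 h against 639.6 and 426 at 4 h (1.97, SE 0.43, adjusted p = 0.0462). Further H1f2 probe sets, at 1.70 and 0.45, did not pass. In all 5 genes both 4 h arrays lay below both arrays of normal liver. They were named for 4 h values below those at 8 h, so this order is no separate evidence of a fall. In limma 4 h against normal liver passed for Neat1, Cited2 and H1f2 (adjusted p = 0.00363, 0.00176 and 0.0269). It did not pass for Inhbe and Leap2 (0.609 and 0.0697). Sult1e1, which inactivates oestrogens, had 324 and 400.2 at 8 h. It was not above background at 4 h, at 23.8 and 12.3, or in normal liver, at 19.4 and 6. The 8 h level was at least 4.03-fold higher than that at 4 h (adjusted p = 0.0294).

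Ribosome biogenesis genes lay higher at 8 h as a list, with few calls, and single genes of polyamine and nucleotide synthesis rose. In 52 of 70 ribosome biogenesis genes both 8 h arrays lay above both 4 h arrays, against 30.0% of all genes, and the median was 0.56. The test called 2 of them, Utp20, a scaffold of the small-subunit processome, with 617 and 507 at 8 h against 224 and 205 at 4 h (1.19, SE 0.24, adjusted p = 0.0327), and Nifk, a nucleolar protein, with 1029 and 1142 at 8 h against 501 and 339 at 4 h (1.28, SE 0.28, adjusted p = 0.0448). Without the 12 h arrays 9 rose and 0 fell (32 higher and 0 lower at an unadjusted p under 0.05 in the fit of all arrays). Of all genes 0.875% were called higher and 0.686% lower, and without the 12 h arrays 1.87% and 1.93%. These shares are the background for the calls in the next 2 lists too. Nop58, a core protein of nucleolar particles, had 743 and 820.4 at 8 h against 264 and 442 at 4 h and did not pass in either fit (1.07, SE 0.30, adjusted p = 0.113). Odc1, ornithine decarboxylase, the entry step of polyamine synthesis, had 2023 and 2036 at 8 h against 821 and 642 at 4 h (1.41, SE 0.25, adjusted p = 0.0199), the 1 of 11 polyamine and Myc network genes that rose (median -0.12). A further Odc1 probe set did not pass (1.32), and another overlapped (0.21). Ctps, CTP synthase, had 735 and 956 at 8 h against 304 and 252 at 4 h (1.42, SE 0.26, adjusted p = 0.021). It was the 1 of 18 nucleotide synthesis genes that rose (median 0.36, with 3 higher and 1 lower at an unadjusted p under 0.05 in limma). In 9 of the 18 both 8 h arrays lay above both 4 h arrays, and in 3 below. Their summed intensity was 23229.6 and 26942.8 at 8 h against 25244.6 and 24985.1 at 4 h. Without the 12 h arrays 1 of the 18 rose and 1 fell. Slc16a1, the lactate carrier MCT1, had 2588 and 2738 at 8 h against 1397 and 1099.8 at 4 h (1.07, SE 0.22, adjusted p = 0.0351). Snhg1, a host transcript of small nucleolar RNAs, had 804 and 768 at 8 h against 204 and 284 at 4 h (1.50, SE 0.30, adjusted p = 0.0327). Further Snhg1 probe sets, at 1.14, 1.63 and 0.56, did not pass.

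The secretory pathway showed a like shift. In 23 of 33 genes of transport between endoplasmic reticulum and Golgi both 8 h arrays were above both 4 h arrays, and in 0 below (30.0% and 24.2% of all genes), with a median of 0.38. The test called 1, Sec22b, a SNARE of these vesicles, with 2305 and 2766 at 8 h against 1029 and 929 at 4 h (1.32, SE 0.25, adjusted p = 0.0251), and 6 without the 12 h arrays. Of all genes 0.875% and 1.87% were called higher in these fits. Of 44 folding and unfolded protein response genes (median 0.28) 1 rose, against the same 0.875% of all genes. This was Dnajb9, a co-chaperone induced through XBP1, with 5713 and 4887 at 8 h against 2309.7 and 1963 at 4 h (1.29, SE 0.28, adjusted p = 0.0462). Without the 12 h arrays 5 rose and 1 fell, against 1.87% and 1.93% of all genes. Manf, a secreted stress protein, rose, with 5047 and 5259 at 8 h against 1782 and 1956 at 4 h (1.44, adjusted p = 0.0112 in that fit). Hspa5, the chaperone BiP, had 13515 and 14920.5 at 8 h against 11466 and 8529.5 at 4 h and did not pass (0.52, SE 0.41). Lrrc59, a ribosome-binding protein of the reticulum, had 4208 and 5604 at 8 h against 1484 and 1636 at 4 h (1.61, SE 0.28, adjusted p = 0.0185). At 12 h Dnajb9 was at 6446 and 4361, Sec22b at 2718 and 2045 and Lrrc59 at 5911 and 3582. Exocrine pancreas is rich in such transcripts, and summed acinar intensity was 393184 and 368178 at 8 h against 51103.2 and 51126.2 at 4 h, and 8225.8 and 4944.8 at 12 h. The part of acinar RNA in these rises was not tested.

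A few inflammatory genes rose at this step. Il1r1, the interleukin 1 receptor, rose to 4654 and 4877 at 8 h against 1973 and 2079 at 4 h (1.21, SE 0.24, adjusted p = 0.0292). Bcl3, a nuclear member of the I-kappa-B family, had 1734 and 1438 at 8 h against 519.6 and 553 at 4 h (1.46, SE 0.26, adjusted p = 0.0199). They were the 2 of 25 cytokine, chemokine and NF-kB target genes that rose, against 0.875% of all genes higher, with 0 lower (median -0.06). Without the 12 h arrays 2 of the list rose and 2 fell. Lcn2, an iron-sequestering acute-phase protein, had 30991 and 26699 at 8 h against 9421 and 10116 at 4 h (1.55, SE 0.49, adjusted p = 0.15), and passed without the 12 h arrays (adjusted p = 0.0042). Mmp14, a membrane-bound matrix protease, had 1137 and 1105 at 8 h against 448 and 441 at 4 h (1.23, SE 0.26, adjusted p = 0.0391). Tnfrsf12a, the receptor of the cytokine TWEAK, had 3163 and 1672 at 8 h against 1162 and 779.8 at 4 h and did not pass (1.22, SE 0.72, adjusted p = 0.467). Its arrays differed at 8 h and more widely at 36 h, at 3303 and 383, which enter the shared spread. In the limma fit of the 8 h and 4 h arrays alone it did not pass either (adjusted p = 0.0907).

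Many genes that were high at 4 h did not pass at this step. Saa1, serum amyloid A, had 40688 and 34605 at 8 h against 32929.6 and 42463 at 4 h, overlapping values with a difference of 0.00 (SE 0.29). Saa2 differed by 0.22 (SE 0.32), the metallothioneins Mt1 by -0.11 (SE 0.26) and Mt2 by 0.06 (SE 0.29), and Cxcl1, a neutrophil-attracting chemokine, by -0.09 (SE 0.41). Socs3, the feedback inhibitor of interleukin 6 signalling, had 2531 and 2805 at 8 h against 3383 and 3074 at 4 h (-0.27, SE 0.33), and Cdkn1a, the cell cycle inhibitor p21, 2541 and 2067 at 8 h against 2372 and 2473 at 4 h (-0.08, SE 0.38). For scale, normal liver had 1041 and 1066 for Saa1 and 222 and 274 for Cdkn1a. Adjusted p in these 7 genes was 0.769 or above, and with these standard errors a small difference could not be seen. Of 26 acute-phase genes none passed in limma with all arrays (3 higher and 0 lower at an unadjusted p under 0.05, median -0.02). Of 19 genes of interleukin 6 and STAT3 signalling none did (2 higher and 4 lower, median 0.02). Without the 12 h arrays 1 acute-phase gene rose and 1 gene of the other list fell, against 1.87% and 1.93% of all genes. Igfbp1, a binding protein of insulin-like growth factors, had 17201 and 17158 at 8 h against 31306 and 38965 at 4 h and did not pass (-1.02, SE 0.48, adjusted p = 0.327).

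Cell cycle lists were near the background. Of 19 genes of G1 cyclins, kinases and inhibitors none passed in limma (0 higher and 2 lower at an unadjusted p under 0.05; median 0.02), and of 24 DNA replication genes none (2 higher and 4 lower; median 0.02). Ccnd1, cyclin D1, had 1618 and 1852 at 8 h against 1650.0 and 1704 at 4 h (0.04, SE 0.45). Of 30 mitosis genes 1 rose and 1 fell, against 0.875% and 0.686% of all genes. Cks1b, a small subunit of cyclin-dependent kinases, rose, with 1179 and 1388 at 8 h against 443 and 519 at 4 h (1.32, SE 0.26, adjusted p = 0.0303). A further Cks1b probe set did not pass (1.11). Cenpa, the centromeric histone, was not above background at 8 h, with 19.7 and 20.2 against 130.0 and 120.5 at 4 h, at least 1.5-fold lower (adjusted p = 0.0303). Hgf, the hepatocyte growth factor of stellate cells, had 232 and 210.4 at 8 h against 139 and 131 at 4 h and did not pass (0.54, SE 0.21, adjusted p = 0.24).

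**Figure D4:**
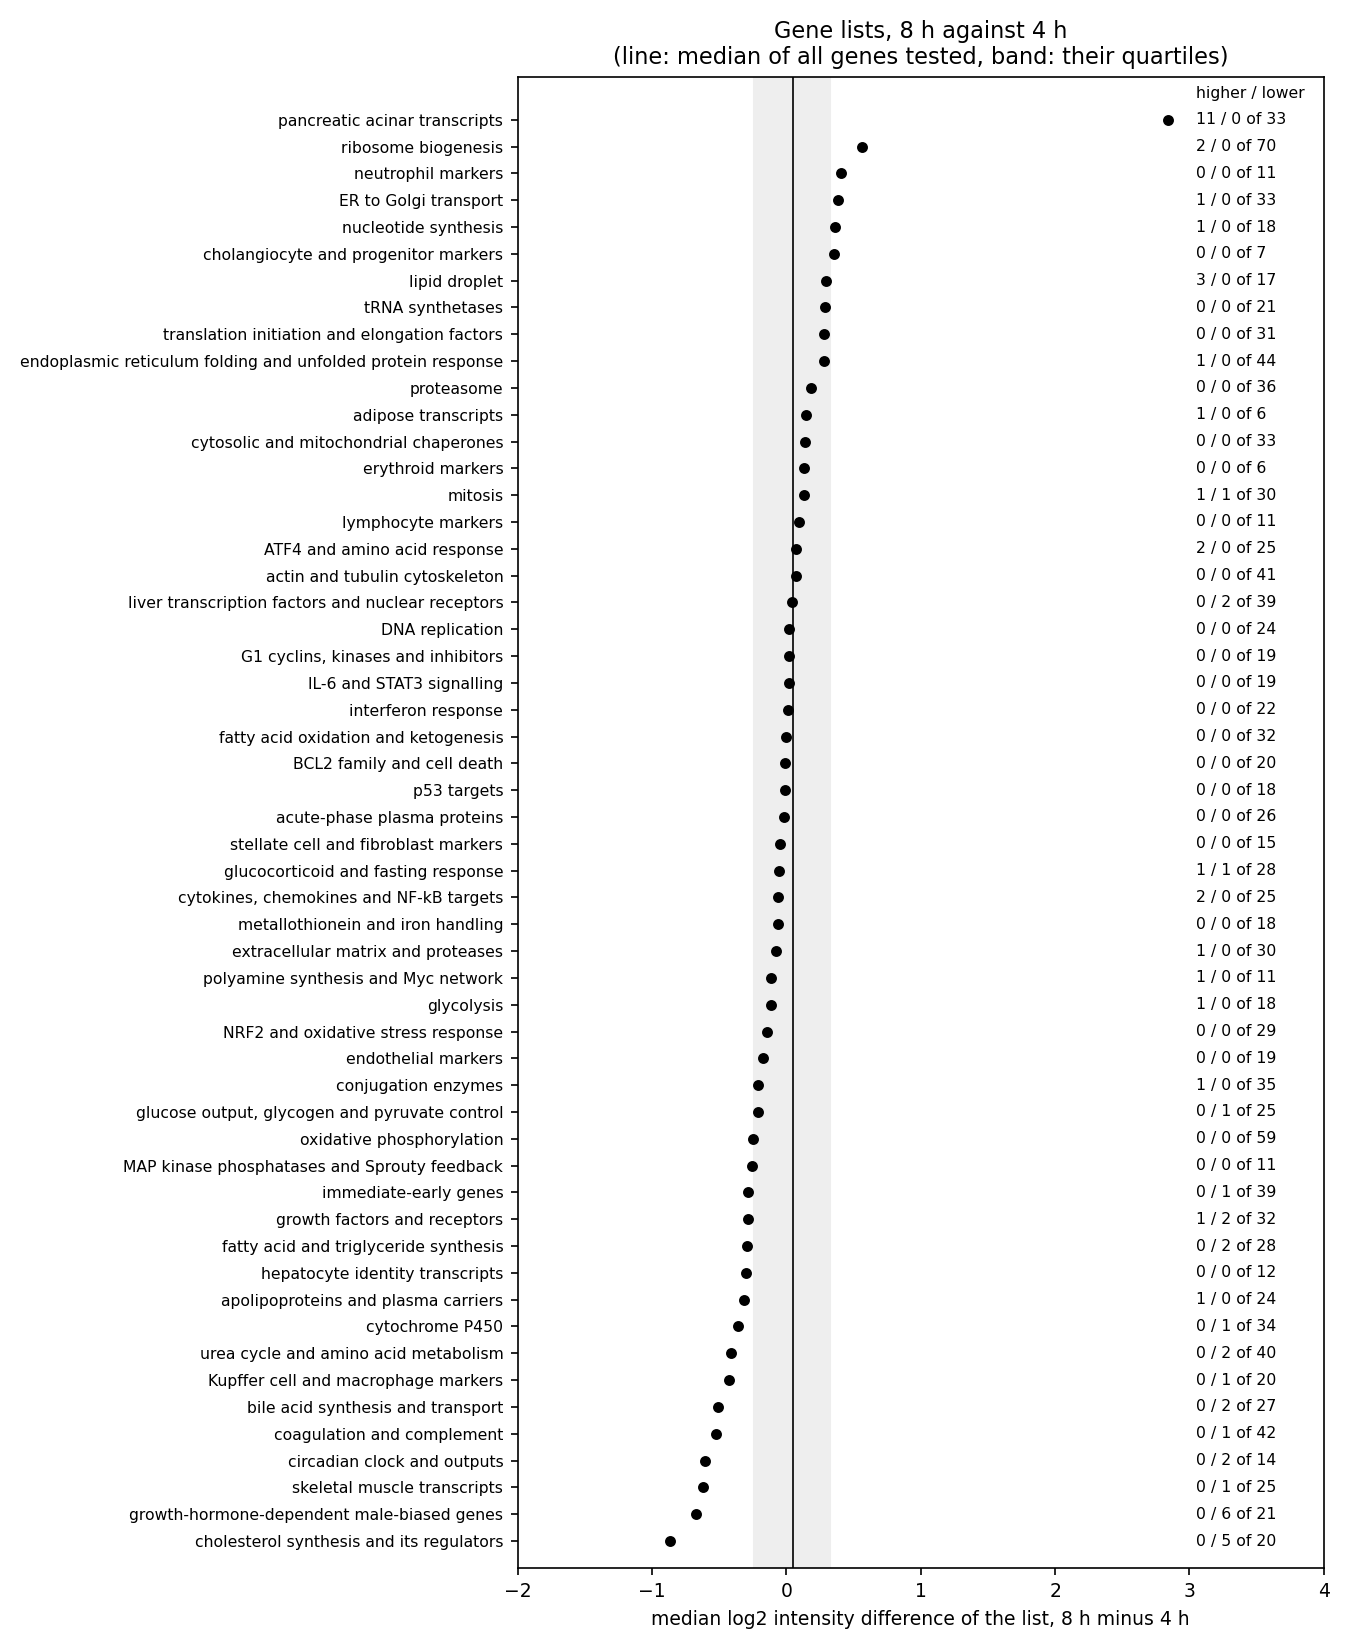
Median log2 intensity difference, 8 h minus 4 h, of each gene list with at least 5 measured genes, with the number called higher and lower of those measured at the right; the line is the median of all 8453 genes and the band their quartiles. Pancreatic acinar transcripts stand far to the right at 2.84, followed by ribosome biogenesis at 0.56, while cholesterol synthesis (-0.86) and growth-hormone-dependent genes (-0.67) lie farthest to the left.

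Markers of the other liver cells gave few calls. Kupffer cell and macrophage markers had a median of -0.43 over 20 genes, with a summed intensity of 15050.9 and 16245 at 8 h against 22801.8 and 23022.6 at 4 h. Csf1r, the receptor that macrophages need to survive, had 1309 and 1346 at 8 h against 2764 and 2934 at 4 h (-1.07, SE 0.21, adjusted p = 0.0295). It was the 1 that fell, against 0.686% of all genes lower. Further Csf1r probe sets, at -1.04 and -0.78, did not pass. Without the 12 h arrays Clec4f, a lectin of Kupffer cells, passed in addition (-0.93), where 1.93% of all genes were lower. Neutrophil markers had a median of 0.40 over 11 genes, and their summed intensity, 34211.4 and 30455.8 at 8 h against 12034.7 and 13051.7 at 4 h, is mostly that of Lcn2, which hepatocytes also make. S100a8, a granulocyte protein, differed by 0.46 and did not pass. None of 11 lymphocyte, 19 endothelial, 15 stellate and fibroblast or 6 erythroid markers passed in limma in either fit (at an unadjusted p under 0.05 there were 1, 1, 2 and 1 higher and 1, 0, 1 and 0 lower).

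Transcripts of exocrine pancreas made up the largest shift of all lists. The summed intensity of 33 acinar transcripts was 393184 and 368178 at 8 h against 51103.2 and 51126.2 at 4 h; it was 4867.5 and 2582.3 in normal liver and 8225.8 and 4944.8 at 12 h. In 32 of 33 both 8 h arrays lay above both 4 h arrays, against 30.0% of all genes, with a median difference of 2.84. Klk1, a tissue kallikrein, had 5176 and 5932 at 8 h against 314 and 262 at 4 h (4.03, SE 0.85, adjusted p = 0.0401), and Spink1, a trypsin inhibitor, 2117 and 2009 at 8 h against 172 and 44.5 at 4 h (3.80, SE 0.49, adjusted p = 0.00486). Clps, pancreatic colipase, had 17999 and 17404 at 8 h against 2379 and 2477 at 4 h (2.84, SE 0.46, adjusted p = 0.0143). Reg3a, a lectin of the stressed pancreas and gut, had 1802 and 1019.9 at 8 h against 22.6 and 23.1 at 4 h, where it was not above background, and was at least 15.2-fold higher (adjusted p = 0.0198). The test called 11 of the 33 as higher, against 0.875% of all genes, and 14 without the 12 h arrays, against 1.87%. A fit of the 8 h and 4 h arrays alone called 31 as higher, against 2.19% of all genes. The arrays at 36 h differed in their summed acinar intensity, 2531.4 and 65628.1, and they enter the shared spread. Ins2, an insulin gene of islets, had 680.2 and 570.3 at 8 h against 58.2 and 76.2 at 4 h, where it was not above background, and so rose at least 6.98-fold (adjusted p = 0.0156).

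Skeletal muscle transcripts lay lower at 8 h. Their summed intensity over 25 genes was 17571.9 and 16328.3 at 8 h against 26745.2 and 25514.5 at 4 h, with 3477.1 and 1994.6 in normal liver, and the list median was -0.62. Cox8b, the muscle and brown fat form of a cytochrome oxidase subunit, was the 1 that fell (-1.41, SE 0.31, adjusted p = 0.0483), against 0.686% of all genes lower. Nupr1, a stress-induced chromatin protein that is also high in injured pancreas, had 1758 and 1952 at 8 h against 117 and 182 at 4 h (3.23, SE 0.42, adjusted p = 0.00486). Krt4, an epithelial keratin, had 1349 and 638 at 8 h against 137 and 252 at 4 h (2.01, SE 0.33, adjusted p = 0.0143). Both were low again at 12 h, Nupr1 at 60.6 and 109 and Krt4 at 43.7 and 46.5, as acinar transcripts were, and the part of pancreatic RNA in these 2 rises was not tested. With all genes of the pancreatic, muscle and adipose lists left out, 156 probe sets passed, 79 higher and 77 lower.

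**Figure D5:**
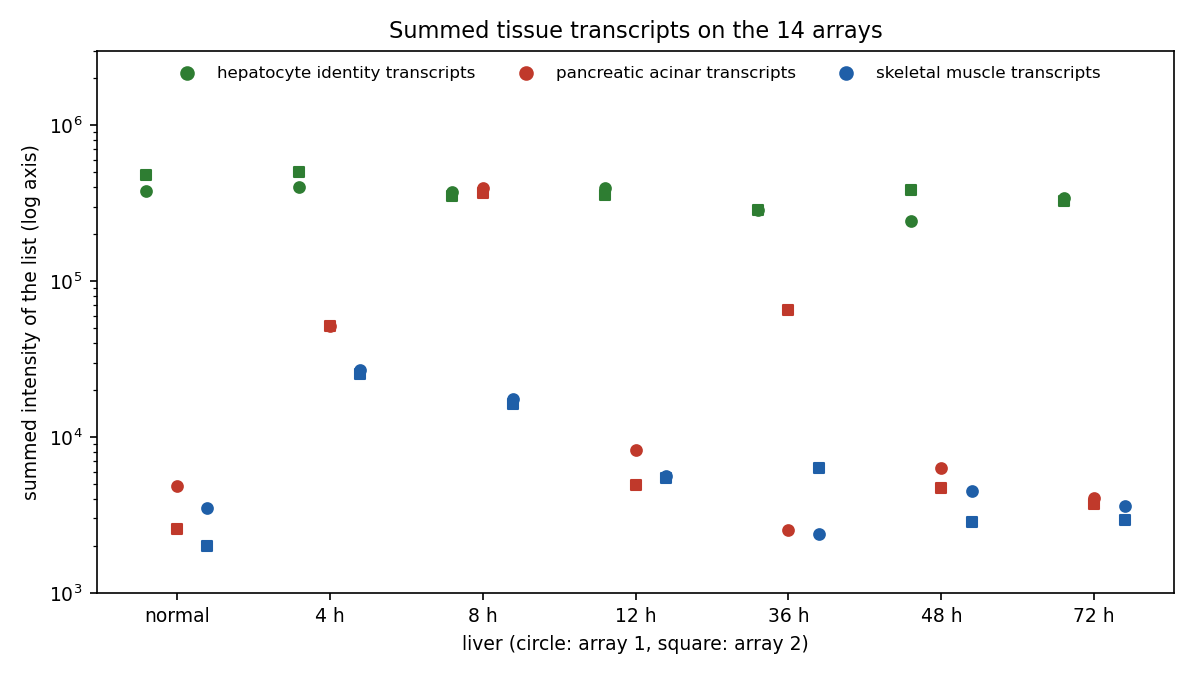
Summed intensity, on a log axis, of 12 hepatocyte identity (green), 33 pancreatic acinar (red) and 25 skeletal muscle transcripts (blue) on each of the 14 arrays in time order, with array 1 as a circle and array 2 as a square. Acinar transcripts reach 393184 and 368178 on the 8 h arrays against 51103.2 and 51126.2 at 4 h, muscle transcripts are highest at 4 h, and hepatocyte transcripts stay within 241871 and 499050 on all arrays.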

How the data were processed

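Total RNA of mouse liver was measured on 14 1-colour arrays with a biotin label. The deposited values are linear intensities per probe set, 22690 in all, from a program not given in the sources used here, on arrays already scaled to a common mean. Per the labels, the authors picked genes by a 2-fold difference from normal liver in GeneSpring 7.2. Control probe sets (64) were left out. Symbols came from the platform annotation: 20380 probe sets have 1 symbol, 691 several and 1555 none, and 20351 symbols were matched by gene identifier to GRCm38.p6, with 0 changed.

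Intensities were kept on the deposited scale, 56.6 (their 25th percentile) was added and log2 taken. Probe sets whose mean reached the 40th percentile (128.8) entered limma 3.58.1 (R 4.3.3; lmFit, eBayes) with 7 groups of 2 arrays (7 residual and 5.07 prior degrees of freedom), with Benjamini-Hochberg adjustment over all 13576 and a threshold of 0.05. Array number limits the precision; median intensities were 178.7 and 195.8 at 8 h and 166 and 174.7 at 4 h. An array's background is taken from its 27 bacterial control probe sets, at their 95th percentile. A time with no array above it gives only a lower bound of the fold, written "at least". The procedure was tested on simulated data.

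Of 55 gene lists each gene counts by its brightest probe set, and no list was tested as a set. Other tested probe sets of Cited2 (1.12), Dgat2 (-1.07), Lrrc59 (1.15) and Mmp14 (1.40) did not pass. Named genes are the 15 largest called rises and falls with non-overlapping arrays and a higher group at or above the median brightness (402.8), the same without genes of other tissues, at most 4 called genes per list, and landmark genes. Genes named because they passed only without the 12 h arrays, or to complete a count, among them Sc5d, Nudt7, Btg2 and Manf, and uncalled list members were chosen after their values were seen. The comparison, lists and rules were chosen with earlier results of these data known. Probe sequences were not used here, so near-identical family members (Hsd3b2 and Hsd3b5, Saa1 and Saa2, the Reg3 and trypsin genes) may share signal. Whether equal array numbers pair the times was checked: deviations of equal-numbered arrays at 8 and 4 h correlated at 0.0046 across probe sets, and the numbers were not treated as pairs. Alternatives were quantile normalization, other pseudocounts, filters, variance and weight settings, blocks, and arrays left out.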

Additional observations from a re-analysis of the deposited data

How the results depend on the processing

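The limit of this comparison is its 2 arrays against 2. The 193 calls (109 higher, 84 lower) became 66 higher with a pseudocount of 14.15, 296 with 138 lower with one of 226.4, 1160 (640 and 520) with array weights, 525 (290 and 235) with only the 4 arrays compared, 78 (55 and 23) without the 4 arrays of low pyruvate carboxylase ratio, 461 (241 and 220) without the 12 h arrays, and 712 (401 and 311) at 2-fold without a test. Leaving out 1 array at a time gave 7 to 461 calls, 2 to 241 higher and 5 to 220 lower. Among these, leaving out an array at 8 or 4 h gave 7 to 14, and an array at 12 h 461. Quantile normalization gave 216. With the replicate number as a block 203 passed (106 and 97), and 63 of the 68 named genes that passed kept their call; the numbers share no pairing in the labels. Of these 68, 66 kept it under quantile normalization, 57 with the low-ratio arrays as a block, 46 with a pseudocount of 14.15, 28 without the low-ratio arrays and 4 to 7 without an array at 8 or 4 h, and 0 changed direction in any of these settings. Small uncalled differences changed sign: under quantile normalization Mt1 (0.19) and Pck1 (0.096); with the low-ratio block Pck1 (0.41) and Mt2 (-0.054); without the low-ratio arrays Mt1 (0.044), Pck1 (0.056), Cdkn1a (0.068), Mt2 (-0.017) and Ccnd1 (-0.049). Over the arrays left out in turn Saa1 ranged from -0.18 to 0.19, Mt1 from -0.34 to 0.12, Mt2 from -0.11 to 0.23, Cxcl1 from -0.21 to 0.020, Cyp7a1 from -0.69 to 0.053, Pck1 from -0.064 to 0.056, Cdkn1a from -0.22 to 0.068 and Ccnd1 from -0.049 to 0.14; the cause was not tested.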

Other observations

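Further genes rose between 4 and 8 h outside the groups above. Slc25a30, a carrier of the inner mitochondrial membrane, had 5938 and 3702 at 8 h against 1283 and 1176 at 4 h (1.88, SE 0.27, adjusted p = 0.00789), and 2 of its 3 other probe sets rose too. Plrg1, a core protein of the spliceosome, had 1365 and 1297 at 8 h against 431 and 314 at 4 h (1.71, SE 0.33, adjusted p = 0.0292). Ints5, a subunit of the Integrator complex, had 1038 and 1077 at 8 h against 298 and 316 at 4 h (1.61, SE 0.34, adjusted p = 0.0401), while 1 of its other probe sets rose and 1 overlapped. Syt12, a synaptotagmin, had 810.1 and 744 at 8 h against 183 and 49.5 at 4 h (2.38, SE 0.39, adjusted p = 0.0144). Psat1, an aminotransferase of serine synthesis, had 119 and 175 at 8 h and was not above background at 4 h, at 8.1 and 10, which makes it at least 1.62-fold higher (adjusted p = 0.0156). Psat1 and Nupr1 were the 2 of 25 genes of the ATF4 and amino acid response that rose (median 0.07), against 0.875% of all genes higher, and 0 fell. Without the 12 h arrays 2 of the 25 rose and 2 fell, against 1.87% and 1.93% of all genes. Atf4 (-0.08), Asns (0.15) and Trib3 (0.07) of the same list did not pass.

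Several lists gave no call in limma with all arrays. These were the lists of 36 proteasome genes (0 higher and 1 lower at an unadjusted p under 0.05, median 0.19), 33 chaperones (4 and 3, median 0.14), 29 NRF2 genes (2 and 3, median -0.15), 31 translation factors (6 and 0, median 0.28), 21 tRNA synthetases (3 and 1, median 0.29), 22 interferon response genes (2 and 4, median 0.01), 18 p53 targets (2 and 2, median -0.01) and 20 genes of the BCL2 family and cell death (2 and 4, median -0.01). Without the 12 h arrays 1 NRF2 gene and 1 tRNA synthetase rose, and 2 p53 targets fell.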
